A study of Mus musculus with 16 samples.

Results

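The genes described here are interferon-stimulated genes of the mouse ventricle, 43 genes of the 33399 with a row in the table of read counts. They were taken from a list of type I sensors and effectors and of GTPases induced by interferon gamma, and all 43 were found by symbol through the GENCODE M21 annotation. Of these, 42 were among the 16400 genes with enough counts for testing. Oas3, with 0 to 7 counts per library, was not tested. Bulk RNA sequencing covered the ventricles of 16 mice of the C57BL/6 strain, wild type in all groups. Chronic kidney disease (CKD) was induced in 8 mice, 4 of each sex, which from 8 weeks of age ate chow containing 0.25% adenine, alternated with plain chow, over 6 weeks. Feeding was set for a median blood urea nitrogen of 40 to 70 mg/dL. The 8 control mice, 4 of each sex, ate plain chow for the same 6 weeks. Each group has 4 libraries, named below as male_control 1 to 4, male_CKD 1 to 4, female_control 1 to 4 and female_CKD 1 to 4. The study counts 8 mice per arm, the number of libraries here, and p-values measure the spread between these libraries.

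Interferons are secreted proteins that act on neighbouring cells. Type I interferons signal through a receptor whose kinases activate a transcription factor complex that contains STAT2 and IRF9 and binds a DNA element called ISRE in front of its target genes. Interferon gamma uses another receptor, leads to binding of the GAS element, and is known for inducing guanylate-binding proteins and immunity-related GTPases. In the heart, endothelial cells, fibroblasts and resident macrophages express many of these targets at a basal level.

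The libraries held 10203707 to 13626039 counts. Library male_CKD 4 stood apart: its summed markers were the lowest of all 16 libraries for endothelial cells, fibroblasts, pericytes, macrophages and lymphocytes, and the highest for cardiomyocytes. Some medians and counts over members, and some marker sums, are also given without it. Values of single members include it unless stated. In bulk samples, fewer cells of a type and less RNA per cell cannot be told apart. Sample titles carry a code number of unstated meaning, which was 6 in 10 libraries, 2 in 3, 3 in 2 and 5 in 1.

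The promoters show what many of these genes share in sequence. RefSeq promoters on GRCm38.p6, running from 250 bases before to 50 after a start, were found for 31 of the 43 genes (35 promoters). An ISRE-type match, GAAA followed by any 2 bases and by GAAA again, on either strand, occurred in 17 of the 31 genes, which is 54.8%, and in 3.99% of all 27025 genes with a promoter. Counted by promoter, the shares were 18 of 35 (51.4%) and 3.44% of all 32851. A GAS match, TTCNNNGAA with N for any base, occurred in 8 of the 31 genes (25.8%) and in 9.55% of all genes, or 8.30% of all promoters. The motifs overlapped each other in Bst2. The Isg15 promoter is shown first because it carries 3 ISRE-type matches that run into each other, at -78, -72 and -66 from the start. Its sequence covers chr4:156200819-156201068, minus strand, 5′ to 3′ along the gene, with the matches in capitals.
Isg15: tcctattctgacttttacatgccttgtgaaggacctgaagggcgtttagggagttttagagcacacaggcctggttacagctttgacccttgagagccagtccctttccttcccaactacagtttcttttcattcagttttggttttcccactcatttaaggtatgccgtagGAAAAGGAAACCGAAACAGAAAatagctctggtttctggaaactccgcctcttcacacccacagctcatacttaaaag

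Shorter windows around the matches are shown for genes whose values are described below, to let the arrangements be compared. Capitals again mark ISRE-type matches, which read TTTC on either side of 2 bases where the motif lies on the other strand. The windows are Oas1a (chr5:120907526-120907560, minus strand), Bst2 (chr8:71537558-71537617, minus strand), Gbp3 (chr3:142559984-142560025, plus strand), Gbp7 (chr3:142530268-142530327, plus strand), Igtp (chr11:58199507-58199555, plus strand), Ifit3 (chr19:34583358-34583417, plus strand) and Stat2 (chr10:128270261-128270320, plus strand).
Oas1a: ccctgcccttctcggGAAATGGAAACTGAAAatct
Bst2: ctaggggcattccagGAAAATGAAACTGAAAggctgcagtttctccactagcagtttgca
Gbp3: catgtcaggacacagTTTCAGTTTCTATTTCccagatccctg
Gbp7: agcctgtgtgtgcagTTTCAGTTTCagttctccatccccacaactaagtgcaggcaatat
Igtp: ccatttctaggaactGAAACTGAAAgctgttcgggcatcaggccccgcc
Ifit3: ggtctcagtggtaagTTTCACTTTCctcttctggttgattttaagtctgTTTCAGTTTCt
Stat2: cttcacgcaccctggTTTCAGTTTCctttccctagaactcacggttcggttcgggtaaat
Oas1a, Bst2 and Gbp3 each hold a pair of matches that share 4 bases, and Ifit3 holds a pair set apart. Gbp3 and Gbp7 are neighbours on chromosome 3, and the same 10 letters are capitalised first in both. These letters are not particular to that pair. Stat2 and Ifit3 hold them too, and Oas1a, Bst2 and Igtp hold them on the other strand. Every gene with an ISRE-type match had at least 1 upstream of the RefSeq start, except Ddx58, Eif2ak2 and Ifih1. Their matches began at positions 3, 19 and 33 after it. The bases just after the start matched a GENCODE M21 transcript of the gene in 25 of the 35 promoters. In GENCODE M21 the genes Gbp2 and Irgm1 begin further out, so their matches lie within the annotated gene. A match is a description of the letters only.

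**Figure D1:**
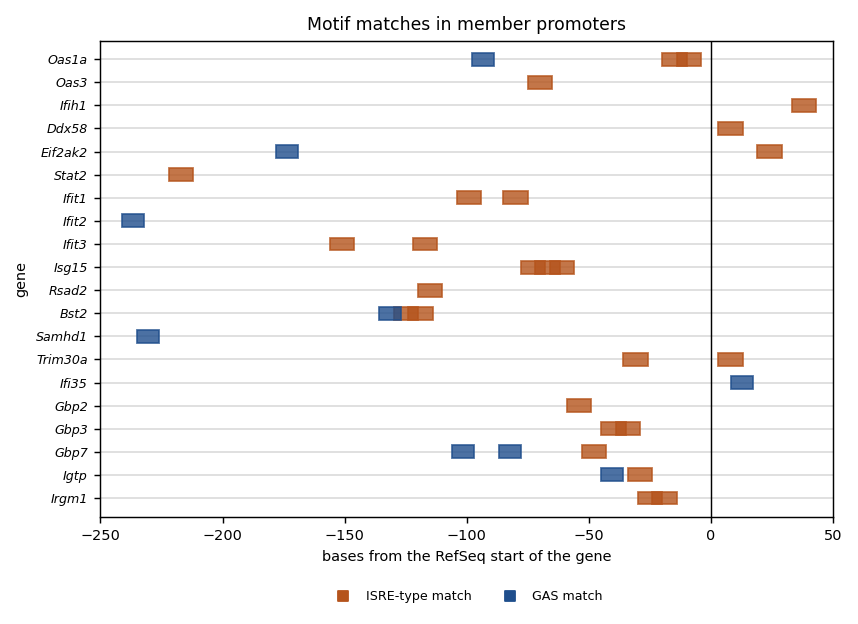
Positions of ISRE-type and GAS matches in the promoters of the members with at least 1 match, in bases from the RefSeq start (x axis), with 1 row per gene. Trim30a has 2 promoters drawn in its row, and ISRE-type matches occurred in 17 of the 31 members with a promoter.

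CKD ventricles held less transcript of most interferon-stimulated genes than control ventricles in these libraries, by a modest amount, and no single gene passed the adjusted test. The log2 fold change of CKD against control was below 0 in 39 of the 42 tested members, against 49.8% of all tested genes. The members were chosen with earlier results of these data known, so these counts describe them and are no independent check. Members also varied together, with 1 library holding the lowest value of 27, so they are not 42 separate observations. The median over members was -0.39, and over all genes 0.00. The values ran from -1.04 for Ifi44, a gene named for its induction by interferon, to 0.06 for Ifi35, an interferon-induced leucine zipper protein. By edgeR's quasi-likelihood test with sex as a covariate and Benjamini-Hochberg adjustment over all tested genes, 0 of the 42 passed an adjusted p of 0.05, and 14 of all genes did (0.0854%). At an unadjusted p under 0.05, 24 members were lower and 0 higher, against 7.24% and 8.12% of all genes. The lowest adjusted p among members was 0.0946, shared by Oas1a, Gbp4 and Xaf1. DESeq2 called 5 members, all lower (Oas1a, Isg15, Xaf1, Gbp3 and Gbp4), with 2.43% of all genes called, and limma-voom called Oas1a and Gbp4, with 1.21% called. With the title code number as a factor, edgeR called 5 members (Oas1a, Ifi27, Xaf1, Gbp4 and Rnf213), with 1.43% of all genes called.

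The CKD libraries differed in how low they lay: male_CKD 4 had the lowest value of 27 members, and female_CKD 4 the highest value of 7. In 14 members every CKD library lay below the control median, against 5.16% of all tested genes: Oas1a, Oas2, Oasl2, Eif2ak2, Irf7, Stat2, Isg15, Bst2, Ifi27, Ifi44, Xaf1, Dtx3l, Parp14 and Rnf213. That median pools both sexes, so a male library can lie below it through sex alone. For Oas1a every male control (3.89 to 5.65 CPM) was also below the pooled control median of 5.77 CPM. In no member did all 8 CKD libraries lie below all 8 controls, an arrangement found in 0.0427% of genes, nor above all 8, found in 0.159%. Without male_CKD 4, 40 of 42 members were below 0 with a median of -0.34. At an unadjusted p under 0.05, 22 were then lower, a count for which the share of all genes is not given. Without female_CKD 4, the CKD library with the highest levels, 41 were below 0 with a median of -0.46, and Oas1a and Gbp4 passed the adjusted test (0.259% of all genes called). Among the 10 libraries with title code number 6, 39 were below 0, again with a median of -0.39.

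**Figure D2:**
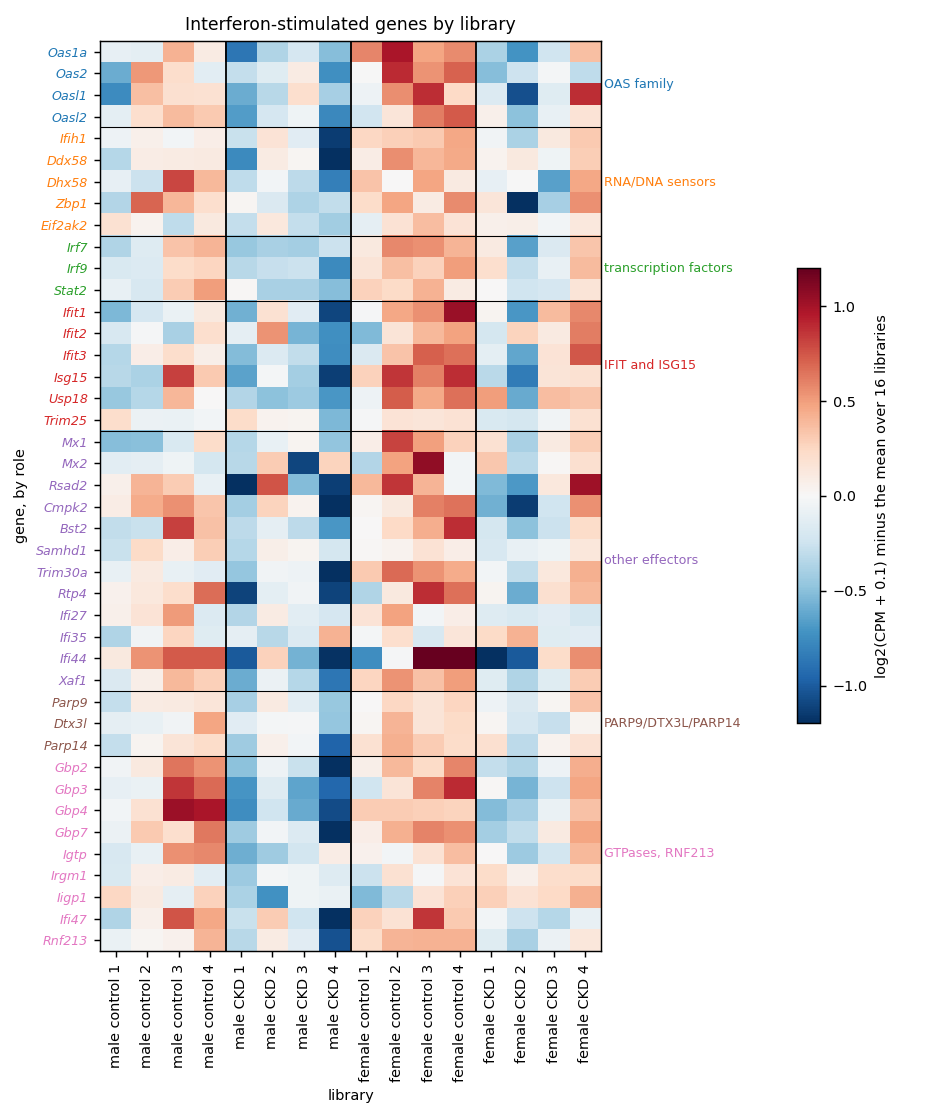
Heat map of the tested members (rows, grouped by role) in the 16 libraries (columns, grouped by sex and arm). Colour is log2(CPM + 0.1) minus the gene's mean over libraries, with the scale limited at 1.2 in either direction; male_CKD 4 has the lowest value of 27 members.

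**Figure D3:**
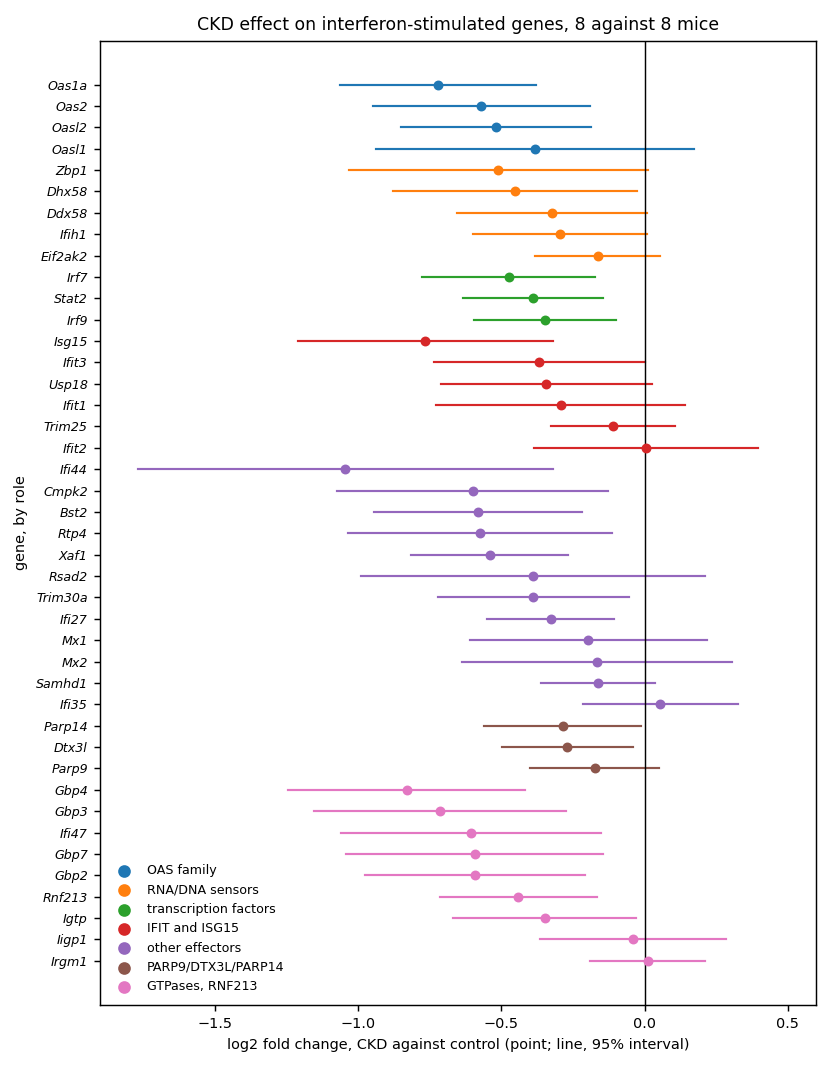
Log2 fold change of CKD against control (x axis) for each tested member, grouped by role, from the fit with sex as a covariate; bars are 95% intervals. Of the 42 values, 39 lie below 0.

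The 2'-5' oligoadenylate synthetases, which on binding double-stranded RNA make the messenger that activates RNase L, had a median log2 fold change of -0.54, with 4 of 4 tested members below 0 and 3 lower at an unadjusted p under 0.05. Oas1a, a catalytic member, lay at 3.89, 5.77 and 8.41 CPM in controls (lowest, median, highest; CPM is read counts scaled to library size) and at 2.27, 3.24 and 5.46 CPM in CKD. All CKD libraries but female_CKD 4 were below the lowest control. The log2 fold change was -0.72 (SE 0.16, edgeR adjusted p = 0.0946). Of the 25-base words of Oas1a, 72.5% also occur in Oas1g, Oas1b or Oas1h, so its counts are not certain to be its own. Oas2, also catalytic, lay at 6.77, 13.4 and 19.3 CPM in controls and at 6.16, 8.55 and 11.1 CPM in CKD, with a log2 fold change of -0.57 (SE 0.18, edgeR adjusted p = 0.147). Controls with low values, among them male_control 1, lay within the CKD range. Oasl2, a related protein, lay at 8.58, 12.2 and 16.9 CPM in controls and at 5.88, 9.15 and 11.4 CPM in CKD, a log2 fold change of -0.52 (SE 0.16, edgeR adjusted p = 0.136). Oasl1, which restrains Irf7 translation, had a log2 fold change of -0.38 at 0.505 to 2.22 CPM over all libraries, and Oas3 stayed between 0 and 0.660 CPM. The OAS genes lie on chromosome 5 of GRCm38, Oas1a (ENSMUSG00000052776.10) from 120896256 to 120907521 and Oas2 (ENSMUSG00000032690.16) from 120730333 to 120749853, both on the minus strand, and Oasl2 (ENSMUSG00000029561.17) from 114896936 to 114912234 on the plus strand. All named members other than Mx2, a polymorphic pseudogene, are annotated as protein coding, and counts cover all exons of a gene.

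The sensors of foreign nucleic acid showed smaller differences. Their median log2 fold change was -0.32, with 5 of 5 below 0 and 1 lower at an unadjusted p under 0.05. That gene was Dhx58, which encodes LGP2, a helicase that modulates the sensors RIG-I and MDA5. It lay at 1.59, 2.27 and 3.41 CPM in controls and at 1.04, 1.66 and 2.68 CPM in CKD, with a log2 fold change of -0.45 (SE 0.20, edgeR adjusted p = 0.292). Ifih1, which encodes MDA5, lay at 11.9, 13.9 and 17.1 CPM in controls and at 5.59, 11.7 and 15.4 CPM in CKD, a log2 fold change of -0.30 (SE 0.14, edgeR adjusted p = 0.336); its lowest value is that of male_CKD 4. Eif2ak2, the kinase PKR that stops translation on binding double-stranded RNA, lay at 16.2, 22.1 and 26.0 CPM in controls and at 15, 20.2 and 21.9 CPM in CKD, a log2 fold change of -0.16 (SE 0.10, edgeR adjusted p = 0.454). Ddx58, which encodes RIG-I, and Zbp1, a sensor of Z-form nucleic acid, had log2 fold changes of -0.32 and -0.51, Zbp1 at only 0.303 to 2.16 CPM.

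All 3 transcription factors of the group were lower at an unadjusted p under 0.05, with a median log2 fold change of -0.39. Stat2, the STAT particular to type I and type III signalling, lay at 21.5, 29.2 and 34.8 CPM in controls and at 17.2, 21 and 27.4 CPM in CKD, with 5 CKD libraries below every control. Its log2 fold change was -0.39 (SE 0.12, edgeR adjusted p = 0.133). Irf7, which drives the amplifying wave of type I interferon genes, lay at 9.13, 15.3 and 17.6 CPM in controls and at 7.47, 9.41 and 14.8 CPM in CKD, a log2 fold change of -0.47 (SE 0.14, edgeR adjusted p = 0.136). Irf9, a DNA-binding partner of STAT2, had -0.35 (SE 0.12, edgeR adjusted p = 0.179). The 3 therefore differed by similar amounts and in the same direction. Stat2 (ENSMUSG00000040033.16) spans chromosome 10 from 128270559 to 128292849, plus strand, and Irf7 (ENSMUSG00000025498.15) chromosome 7 from 141262706 to 141266481, minus strand.

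The IFIT proteins, which bind foreign RNA ends, and the ISG15 system, a ubiquitin-like modifier with its enzymes, were uneven. Their median log2 fold change was -0.32, with 5 of 6 below 0 and 1, Isg15, lower at an unadjusted p under 0.05. Isg15, the modifier itself, whose promoter is printed above, lay at 3.10, 5.66 and 7.59 CPM in controls and at 1.80, 3.13 and 4.62 CPM in CKD. CKD libraries overlapped the 2 lowest male controls but lay below the control median in every case. The log2 fold change was -0.77 (SE 0.21, edgeR adjusted p = 0.123), and 17.5% of its 25-base words occur in other genes. Ifit3 lay at 12.3, 17.3 and 25.7 CPM in controls and at 9.29, 13.3 and 26.3 CPM in CKD, a log2 fold change of -0.37 (SE 0.18, edgeR adjusted p = 0.327), and it shares 66.1% of its words with Ifit3b. The highest Ifit3 value of all belonged to a CKD library, so the arms overlapped widely. Ifit1 and Ifit2 had log2 fold changes of -0.29 and 0.00, Usp18, the protease that removes ISG15, had -0.34, and Trim25, a ubiquitin ligase that acts on RIG-I, had -0.11. Isg15 (ENSMUSG00000035692.6) spans chromosome 4 from 156199424 to 156200818, minus strand, and the 3 Ifit genes lie together on chromosome 19.

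Among the 12 other antiviral effectors, 11 were below 0 and 7 were lower at an unadjusted p under 0.05, with a median log2 fold change of -0.39. Xaf1, a pro-apoptotic binding partner of XIAP, lay at 9.56, 13.5 and 15.7 CPM in controls and at 5.88, 9.10 and 13.3 CPM in CKD. Its log2 fold change was -0.54 (SE 0.13, edgeR adjusted p = 0.0946). Bst2, which encodes tetherin and holds budding virions at the cell surface, lay at 14.5, 22 and 33.2 CPM in controls and at 11, 14.7 and 20.8 CPM in CKD. Its log2 fold change was -0.58 (SE 0.17, edgeR adjusted p = 0.134), and 4 CKD libraries lay below every control. Both arms overlapped in part for Xaf1 and for Bst2. Ifi44 had the lowest value of all members, -1.04, with a wide error (SE 0.34, edgeR adjusted p = 0.165). It ran from 1.95 to 9.46 CPM in controls and from 1.10 to 4.99 CPM in CKD. The log2 fold changes were -0.60 for Cmpk2, a mitochondrial nucleotide kinase, and -0.39 for its neighbour Rsad2, which encodes viperin. Rsad2 was widely scattered, at 19.1 to 37.1 CPM in controls and 8.06 to 41.5 CPM in CKD. Rtp4, a chaperone of receptor transport, had -0.57, Ifi27 -0.33, Trim30a, a TRIM protein, -0.39, and Samhd1, which hydrolyses deoxynucleotides, -0.16. The Mx GTPases had -0.20 for Mx1 and -0.17 for Mx2, at 0.642 to 1.75 CPM for Mx1. Xaf1 (ENSMUSG00000040483.15) spans chromosome 11 from 72301629 to 72313733, plus strand, and Bst2 (ENSMUSG00000046718.8) chromosome 8 from 71534255 to 71537456, minus strand.

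The ADP-ribosylation genes Parp9, Dtx3l and Parp14 had small log2 fold changes with a median of -0.27, all 3 below 0 and 2 lower at an unadjusted p under 0.05. Dtx3l, a ubiquitin ligase that pairs with PARP9, lay at 17.5, 20.0 and 26.1 CPM in controls and at 13.6, 17.8 and 19.2 CPM in CKD, a log2 fold change of -0.27 (SE 0.11, edgeR adjusted p = 0.249). Parp14, a mono-ADP-ribosyltransferase, lay at 30.7, 42.9 and 50.0 CPM in controls and at 19.1, 37.5 and 42.7 CPM in CKD, a log2 fold change of -0.29 (SE 0.13, edgeR adjusted p = 0.299). Parp9 lay at 18.5, 24.7 and 27.0 CPM in controls and at 16.5, 21.2 and 28.7 CPM in CKD, a log2 fold change of -0.17 (SE 0.11, edgeR adjusted p = 0.445). In each of the 3 genes the groups overlapped. Parp9 and Dtx3l sit on opposite strands of chromosome 16 and share exon bases, 9.40% of those of Parp9 and 8.00% of those of Dtx3l; whether counting used strand is not known.

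The GTPases induced by interferon gamma, with the ubiquitin ligase Rnf213 beside them, held the most negative median, -0.59, with 8 of 9 below 0 and 7 lower at an unadjusted p under 0.05. Gbp4, a guanylate-binding protein, lay at 24.0, 30.2 and 50.0 CPM in controls and at 11.7, 17.8 and 31.3 CPM in CKD, with 7 of 8 CKD libraries below every control. Its log2 fold change was -0.83 (SE 0.20, edgeR adjusted p = 0.0946), and 19.4% of its 25-base words occur in other genes, among them Gbp8, Gbp6 and Gbp9. Gbp3 lay at 13.2, 20.5 and 29.1 CPM in controls and at 8.05, 11.9 and 21.6 CPM in CKD, a log2 fold change of -0.71 (SE 0.21, edgeR adjusted p = 0.131). The guanylate-binding proteins coat vacuoles that hold pathogens, and Gbp2 and Gbp7 had the same log2 fold change to 2 decimals, -0.59. The immunity-related GTPases were divided: Ifi47 had -0.61 and Igtp -0.35, while Irgm1, a regulator of the others, had 0.01 and Iigp1 had -0.04 (SE 0.15, edgeR adjusted p = 0.914). Iigp1 lay at 60.2, 95.9 and 106 CPM in controls and at 52.6, 91.0 and 117 CPM in CKD, so the arms covered much the same range. Rnf213 had -0.44 (SE 0.13, edgeR adjusted p = 0.132). Gbp4 (ENSMUSG00000079363.7) spans chromosome 5 from 105115767 to 105139586, minus strand. Gbp3 (ENSMUSG00000028268.14) spans chromosome 3 from 142560026 to 142573209, plus strand, beside Gbp7 and Gbp2.

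**Figure D4:**
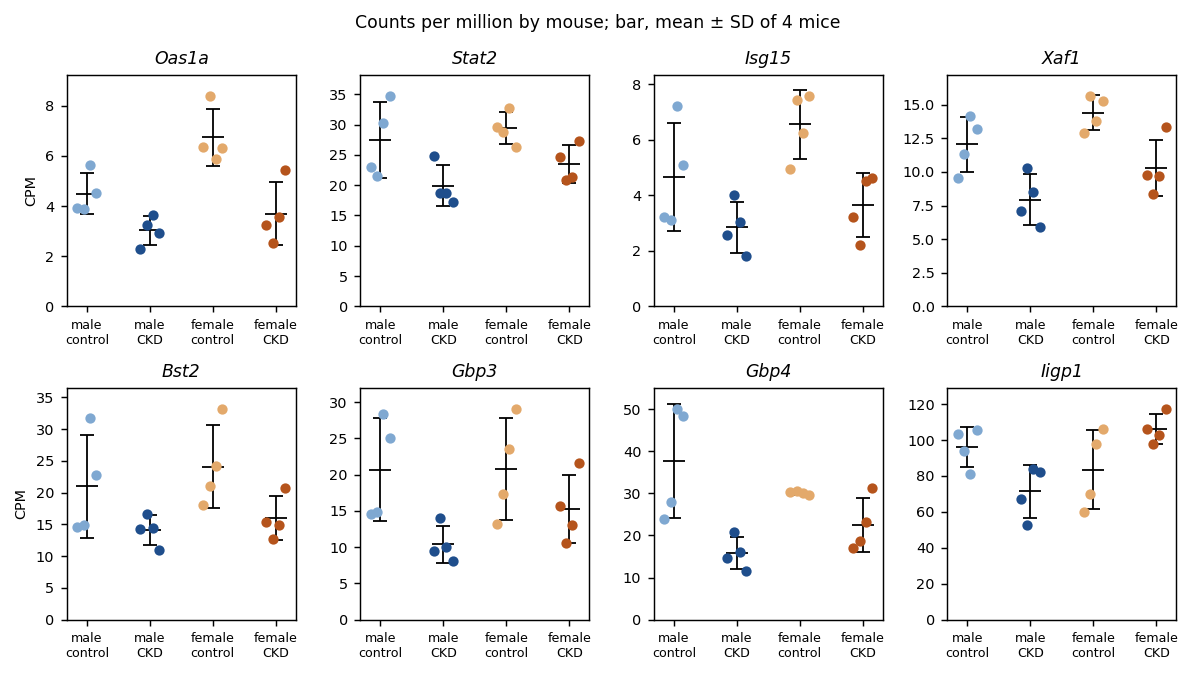
CPM of 8 members described in full, in every library (points), by sex and arm, with the mean and SD of each group of 4 as a black bar. In the Gbp4 and Oas1a panels 7 of 8 CKD points lie below the lowest control point.

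Per length of exon, Bst2 was the most abundant member in controls, at 25 ± 7.79 CPM per kilobase (SD, n = 8), and Ifi27 followed at 22.4 ± 3.78, a gap smaller than the SDs. Iigp1 came next at 15.4 ± 3.01 CPM per kilobase, and Igtp, Ifi35, Gbp2 and Ifit3 lay between 10.6 and 13.2. At the other end stood Mx1 at 0.28 and Oas3 at 0.04 CPM per kilobase. Members with an ISRE-type match had a median log2 fold change of -0.39 (16 tested, 15 below 0), members without one -0.41 (14 tested, 12 below 0), and members with no promoter in the table -0.34 (12 tested, 12 below 0).

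In males Gbp4, Gbp3 and Gbp2 had the lowest p among the members. The log2 fold change of CKD against control in males was below 0 in 39 of 42 members (48.6% of all genes), with a median of -0.43. Of the members 0 passed edgeR's quasi-likelihood test at an adjusted p of 0.05, as did 0 of all genes (0%), while DESeq2 called Gbp4, with 0.0732% of all genes called, and limma-voom 0. At an unadjusted p under 0.05, 18 members were lower and 0 higher, against 2.95% and 3.93% of all genes. Gbp4 read 24.0, 28, 50.0 and 48.5 CPM in male controls 1 to 4 and 14.7, 20.9, 16.1 and 11.7 CPM in CKD males, a log2 fold change of -1.25 (SE 0.25, edgeR adjusted p = 0.364). Gbp3 read 14.5, 14.8, 28.4 and 25.1 CPM in controls and 9.53, 14, 10.0 and 8.05 CPM in CKD, a log2 fold change of -0.99 (SE 0.29, edgeR adjusted p = 0.572). Gbp2 read 22.8, 25.5, 36.7 and 34.1 CPM in controls and 16.7, 22.5, 19.5 and 8.53 CPM in CKD, a log2 fold change of -0.82 (SE 0.26, edgeR adjusted p = 0.572). With 1 library left out, the log2 fold changes in males ran from -1.43 to -1.08 for Gbp4 and from -1.18 to -0.80 for Gbp3. For Gbp2 they ran from -1.01 to -0.59. In all 3 genes every CKD male lay below every control male. Male controls 3 and 4, whose title code numbers are 3 and 2, were the high ones. The same arrangement held for Oas1a, Irf9 and Rtp4, 6 members in all, against 1.56% of all genes; 0 members had every CKD male above every control, against 1.63%. Among title code number 6 alone (2 control and 2 CKD males) the male median was -0.20 with 36 of 42 below 0 and 4 lower at an unadjusted p under 0.05, and Gbp4 was at -0.75 (SE 0.16). Without male_CKD 4 the male median was -0.31, with 38 below 0 and 10 lower at an unadjusted p under 0.05. That count was also 10 without male_control 3, 7 without male_control 4 or without male_CKD 1, and 8 with limma-voom. The share of all genes at that p is not given for these settings.

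In females Oas1a, Oas2 and Isg15 had the lowest p among the members, while the related Oasl2 and Oasl1 had log2 fold changes of -0.43 each (edgeR adjusted p = 0.634 and 0.772). The log2 fold change was below 0 in 38 of 42 members (50.7% of all genes), with a median of -0.36. Of the members 0 passed edgeR's test at an adjusted p of 0.05, against 0.0549% of all genes; DESeq2 called 0 members (0.195% of all genes) and limma-voom called Oas1a (0.335% of all genes). At an unadjusted p under 0.05, 8 members were lower and 0 higher, against 4.18% and 4.16% of all genes. Oas1a read 6.37, 8.41, 5.90 and 6.31 CPM in female controls and 3.23, 2.52, 3.56 and 5.46 CPM in CKD, a log2 fold change of -0.87 (SE 0.23, edgeR adjusted p = 0.405). Oas2 read 10.3, 19.3, 15.1 and 16.9 CPM in controls and 7.22, 8.68, 10.2 and 8.32 CPM in CKD, a log2 fold change of -0.84 (SE 0.25, edgeR adjusted p = 0.437). Isg15 read 4.93, 7.45, 6.23 and 7.59 CPM in controls and 3.23, 2.22, 4.52 and 4.62 CPM in CKD, a log2 fold change of -0.83 (SE 0.30, edgeR adjusted p = 0.483). In these 3 genes every CKD female lay below every control female, as in Ifi27, Ifi47 and Rnf213, 6 members against 2.49% of all genes; the reverse held in 0 members, against 5.08%. Among title code number 6 alone (3 control and 3 CKD females) the female median was -0.48, and over all genes -0.03. In that set 21 members were lower at an unadjusted p under 0.05. Without female_CKD 4, whose code number is 2, the median was -0.51, with 17 lower. Without female_CKD 2 it was -0.29, with 4 lower. For these reduced sets of libraries the share of all genes at that p is not given, so the counts cannot be set against it.

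The difference of the CKD effect between the sexes, female minus male, had a median of 0.08 over members, was below 0 in 18 of them (54% of all genes), and passed the adjusted test in 0 of 42 members by edgeR's quasi-likelihood test and in 0 by DESeq2 and limma-voom (0% of all genes by edgeR). At an unadjusted p under 0.05 it was higher in 2 members and lower in 0, against 0.671% and 1.01% of all genes. The 2 were Iigp1 and Gbp4. Iigp1, an immunity-related GTPase, read 103, 93.9, 81.0 and 106 CPM in male controls, 67.1, 52.6, 84.0 and 82.3 CPM in CKD males, 60.2, 69.7, 97.8 and 106 CPM in female controls, and 106, 98.0, 103 and 117 CPM in CKD females. Its log2 fold change was -0.43 in males and 0.35 in females, a difference of 0.77 (SE 0.25, edgeR adjusted p = 1), and 0.79 within title code number 6. Gbp4 read 30.4, 30.5, 30.1 and 29.6 CPM in female controls and 17.1, 18.6, 23.2 and 31.3 CPM in CKD females, with a log2 fold change of -0.42 in females and a difference from males of 0.83 (SE 0.35, edgeR adjusted p = 1). Within title code number 6 that difference was 0.10. Oas2 came next by p, with a difference of -0.54 (SE 0.35, edgeR adjusted p = 1). Over members, the median difference was -0.21 within title code number 6, so its sign depended on which libraries entered. With all libraries, the role groups differed. The median difference was 0.36 for the gamma-induced GTPases with Rnf213 (7 of 9 above 0) and -0.20 for the OAS family (1 of 4 above 0). In the remaining groups it ran from -0.02 to 0.14.

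**Figure D5:**
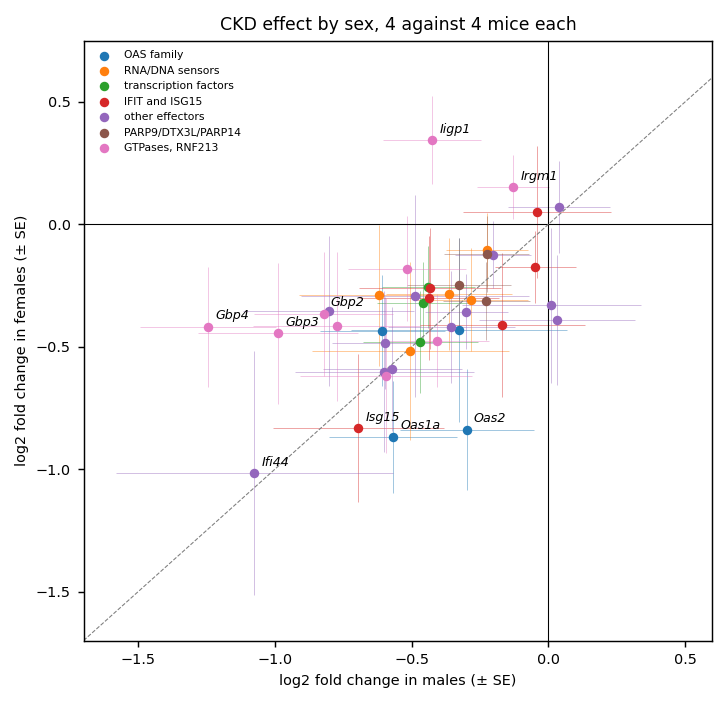
Log2 fold change of CKD against control in males (x axis) and in females (y axis) for each tested member, with SE bars and a dashed line where the sexes are equal. Most points lie where both values are negative; Iigp1 is at -0.43 in males and 0.35 in females.

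Most of these genes had higher values in female than in male control ventricles, though no member passed the adjusted test. In controls, females against males, the log2 fold change was above 0 in 36 of 42 members (negative in 48.5% of all genes), with a median of 0.18. Leaving out 1 library gave medians from 0.14 to 0.29, the lowest without male_control 1 (11 members below 0) and the highest without female_control 1. Without male_control 4 it was 0.27. The role groups were uneven, with medians of 0.47 for the OAS family and 0.45 for the IFIT and ISG15 group. The gamma-induced GTPases with Rnf213 had a median of 0.01, with 5 of 9 above 0. In the remaining groups the median ran from 0.14 to 0.28. By edgeR's quasi-likelihood test 0 members passed (0.0366% of all genes), as with DESeq2 and limma-voom, and 6 were higher and 0 lower at an unadjusted p under 0.05, against 2.34% and 4.51% of all genes. Mx1, whose allele in this strain is known to give no working protein, read 0.642, 0.649, 0.831 and 1.13 CPM in males and 1.02, 1.75, 1.39 and 1.18 CPM in females, a log2 fold change of 0.73 (SE 0.27, edgeR adjusted p = 0.639). Oas1a had 0.59 (SE 0.22) and Ifit1 0.72 (SE 0.30), both with the same edgeR adjusted p of 0.639. Every control female lay above every control male in Oas1a, Ifih1 and Trim30a, 3 members, against 1.90% of all genes, and below in 0, against 2.03%.

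With CKD, females against males, 39 of 42 members were above 0 (51.1% of all genes were below it), with a median of 0.32. Without female_CKD 4 the median was 0.19 with 9 members below 0, without male_CKD 4 it was 0.23 with 6 below 0, and with limma-voom 0.12 with 11 below 0. The CKD males are the libraries of the comparison in males, so these values are not independent of it. By edgeR's test 0 members passed (0.0427% of all genes), with 5 higher and 0 lower at an unadjusted p under 0.05 (4.73% and 10.3% of all genes); DESeq2 called 0 (0.36% of all genes). Limma-voom called Iigp1, 1 of 42 members, and 9.48% of all genes. Iigp1 had a log2 fold change of 0.57 (SE 0.18, edgeR adjusted p = 0.255). Usp18 read 3.52, 3.18, 3.31 and 2.75 CPM in CKD males and 6.45, 2.93, 5.86 and 5.73 CPM in CKD females, a log2 fold change of 0.72 (SE 0.26, edgeR adjusted p = 0.263). Irf9 had 0.47 (SE 0.17, edgeR adjusted p = 0.265). Iigp1 and Irgm1 were the 2 members with every CKD female above every CKD male, against 4.07% of all genes, and 0 had the reverse, against 6.96%. Usp18 overlapped through female_CKD 2.

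Averaged over the members, 3 of 4 CKD libraries in each sex lay below every control of that sex. The mean log2 CPM over the 42 tested members was 3.43, 3.66, 3.88 and 3.86 in male controls 1 to 4 and 3.16, 3.56, 3.38 and 2.88 in CKD males. In female controls it was 3.63, 3.97, 4.04 and 4.05, and in CKD females 3.51, 3.22, 3.57 and 3.92. The CKD libraries within the control range were male_CKD 2 and female_CKD 4. The highest value of a member belonged to a female control in 23 members, a male control in 10, a CKD female in 7 and a CKD male in 2. The lowest belonged to a CKD male in 36, of which male_CKD 4 took 27, and to a female control in 0.

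The rest of the interferon pathway was measured from the same counts. Of 20 listed interferon ligands, 3 had a row: Ifnb1 and Ifna7 had 1 count each over all 16 libraries, and Ifng had 2. None could be tested, and at this depth their transcripts were not measurable. Of 12 receptor and JAK-STAT genes, all tested, 6 were below 0 with a median log2 fold change of -0.02, and 0 passed by edgeR, DESeq2 or limma-voom. At an unadjusted p under 0.05, 1 was lower and 0 higher. Over all tested genes 49.8% were below 0, and 7.24% were lower and 8.12% higher at that p. Il10rb, a subunit of the type III receptor, had 0.17 (edgeR adjusted p = 0.340). Of 16 tested genes that lead from sensing to interferon, 13 were below 0 with a median of -0.11, and 0 passed by any of the 3 tools. The 2 lower at an unadjusted p under 0.05 were Irf8 and Irf1, both interferon regulatory factors. Irf8 was at -0.43 (SE 0.14, edgeR adjusted p = 0.150) and Irf1 at -0.31 (SE 0.14, edgeR adjusted p = 0.306). By sex, 7 of the 16 were below 0 in males (median 0.01) and 13 in females (median -0.17). Irf1 had -0.53 in males and -0.09 in females, and Irf8 had -0.36 and -0.52.

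A further list of 56 interferon-stimulated genes outside the 43 gave similar counts. It was also chosen with earlier results of these data known, so it is no independent check. Some of its genes share sequence with members, such as Oas1g and Oas1b with Oas1a, and Ifit3b with Ifit3. Of 53 tested, 47 were below 0 with a median of -0.33, against 49.8% of all tested genes below 0. At an unadjusted p under 0.05, 23 were lower and 2 higher, against 7.24% and 8.12% of all genes. By edgeR's adjusted test 0 passed, against 0.0854%. DESeq2 called 5 of them (Cxcl9, Ifit1bl1, Irgm2, Lgals3bp and Oas1g), with 2.43% of all genes called. Limma-voom called 2 (Lgals3bp and Oas1g), with 1.21% called. Oas1g, close in sequence to Oas1a, had the lowest p, with a log2 fold change of -0.59 (SE 0.15, edgeR adjusted p = 0.0946), followed by Irgm2 with -0.43 (SE 0.11, edgeR adjusted p = 0.108). The 2 higher genes, named after their values were seen, were Ifit1bl1 at 0.52 (SE 0.14, edgeR adjusted p = 0.123) and Ifitm1, a membrane protein that blocks viral entry, at 0.75 (SE 0.23, edgeR adjusted p = 0.136).

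Markers of other cells were read beside the members, and their part in the result was not tested. The lowest sums in CKD males for endothelial, fibroblast, macrophage and lymphocyte markers are those of male_CKD 4. Summed endothelial markers ran from 785 to 973 CPM in male controls and from 359 to 864 CPM in CKD males (from 664 without male_CKD 4), and from 767 to 1057 CPM and 619 to 968 CPM in females. All 8 endothelial markers had a log2 fold change below 0, with a median of -0.35. All 7 fibroblast markers were below 0 as well, with a median of -0.43. They summed to 839 to 1000 CPM in female controls and 655 to 1065 CPM in CKD females. In males the sums were 799 to 974 CPM in controls and 191 to 1019 CPM in CKD (851 to 1019 without male_CKD 4). Without that library, CKD males were not below control males in these fibroblast sums. Macrophage markers were below 0 in 8 of 10, with a median of -0.13, at 190 to 250 CPM in male controls and 99.6 to 252 CPM in CKD males (218 to 252 without male_CKD 4), and at 179 to 220 and 170 to 229 CPM in females. The 6 tested lymphocyte markers were below 0, with a median of -0.50. All 11 listed ones summed to 10.8 to 29.7 CPM over the libraries, from 15.2 without male_CKD 4. Markers of plasmacytoid dendritic cells, known as producers of type I interferon, summed to 0.379 to 1.59 CPM without Bst2. The 4 tested neutrophil markers were above 0, and all 6 listed ones summed to 3.58 to 23.0 CPM in male controls, 13 to 18.1 in CKD males, 1.77 to 7.53 in female controls and 3.79 to 10.5 in CKD females. No marker of these lists was at 0 in all libraries. Of 7 cardiomyocyte markers 1 was below 0, with a median of 0.17. They summed to 26990 to 39504.5 CPM in male controls and 31710 to 44971 CPM in CKD males, the highest being male_CKD 4. In females they summed to 31587 to 35286.5 CPM in controls and 32096 to 40831 CPM in CKD. All 7 pericyte and smooth muscle markers were below 0, with a median of -0.17. Among all tested genes 49.8% were below 0.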

How the data were processed

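Total RNA from ventricles was sequenced as 50 bp paired-end reads, per the labels' protocols. The authors deposited whole-number counts per gene, in 1 table and with no normalization. STAR 2.6.1d, Subread 1.6.3 (featureCounts), DESeq2 1.30.1, FastQC, MultiQC and the mm10 build are listed in the submitters' processing notes. The sources used here do not name the annotation release, the strand setting or the handling of multimapping reads, which bears on paralogous members. Groups came from the treatment and sex labels; replicate numbers, given in record order, are names and pair nothing. Of 33399 identifiers 33367 matched GENCODE M21 (GRCm38).

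Testing used edgeR 4.0.16 (R 4.3.3): filterByExpr (minimum count 10, minimum total 15), TMM scaling, and the quasi-likelihood test, two-sided, on all 16400 genes kept, with Benjamini-Hochberg adjustment at 0.05. Both sexes together were fitted with sex as a covariate, and all other comparisons as contrasts of the 4 groups. The filter kept at least 99.8% of the counts of each library. Totals of 10203707 to 13626039 counts leave the spread between libraries (common biological coefficient of variation, 0.225) as the main error for genes with many counts. The median SE of a log2 fold change was 0.149 over both sexes. The code was tested on simulated data. The result of 1 gene that met the naming rule is not reported here, though counts include it.

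The members, lists and rules were chosen with earlier results of these data known. Named in full were the 2 members with the lowest p in each role group and the 1 with the highest level per length, and the 3 with the lowest p in each other comparison; other members named with a value show the range of their group. Alternatives were DESeq2 1.42.0, limma-voom with quality weights (limma 3.58.1), RLE and upper-quartile scaling, no mitochondrial genes, no filter, 1 CPM in 8 libraries, title code number as a factor, only code number 6, GC and length trends removed (lowess, span 0.3), no sex term, only the 8 libraries compared, each library left out, and male_CKD 4 with female_control 2 left out. A 25-base word is shared when it occurs in a transcript of another gene, on either strand.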

Additional observations from a re-analysis of the deposited data

Results flagged for a closer look

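Of 76 groups of 4 libraries checked for a value far from the others, 2 held one; chance alone gives about 1 in 20 groups. Dtx3l in male_control 4 read 26.1 CPM, and the other 3 male controls read 17.5, 17.7 and 18.2. Parp9 in male_control 1 read 18.5 CPM, and the other 3 male controls read 24.2, 24.3 and 25. The 2 genes are neighbours that share exon bases on opposite strands, and the low Parp9 and high Dtx3l values belong to different libraries.

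Iigp1 had every CKD male below the mean of the control males and every CKD female above the mean of the control females. The difference of the CKD effect, female minus male, was 0.77 on the log2 scale (edgeR adjusted p = 1), and it was 0.79 within title code number 6 and 0.81 without male_CKD 4.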

How the results depend on the processing

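No paired analysis was possible because replicate numbers only follow the order of the records. Over the 28 alternatives for CKD against control, 38 to 42 members had a negative value, with medians from -0.46 to -0.33 and 20 to 31 lower at an unadjusted p under 0.05. Members past the threshold numbered 5 with DESeq2, 2 with limma-voom, 1 (Gbp4) with no filter and 5 with the title code number as a factor; leaving out 1 library gave 0 to 2. Over all genes 398, 199, 53 and 234 passed under those 4 settings, 8 with code number 6 only, 27 with GC and length trends removed and 22 without male_CKD 4 and female_control 2. Leaving out 1 library gave 6 to 43, 43 without female_CKD 4 and 37 without male_control 2. DESeq2 called 1 member in males (12 of all genes); limma-voom called 1 in females (55 of all genes) and 1 between the sexes in CKD (1554 of all genes). Iigp1 over both sexes changed sign to 0.10 with the code number as a factor, 0.099 with code number 6 only, 0.0096 without male_control 4, 0.0081 without male_CKD 1 and 0.022 without male_CKD 2, all near 0, and ran from -0.13 to 0.022 with 1 library left out. Counts of members by sex rest on few libraries: 7 to 24 were lower at an unadjusted p under 0.05 in males and 4 to 17 in females when 1 library was left out. Shares of all genes at that unadjusted p are not given for the alternatives. The causes were not tested. The spread between mice, more than counting error, limits precision for members well above the filter. Mx1, Zbp1 and Oasl1 had few counts. Counts per library were also low in Dhx58 (11 to 41), Mx2 (12 to 63), Isg15 (19 to 87), Oas1a (25 to 96) and Ifi44 (13 to 110). For members with so few counts, counting error adds to the spread.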
